A study of Mus musculus with 14 samples.

Results

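The genes described here are 40 genes of cardiac calcium handling and ion channels, found by symbol in the table of gene counts. Each symbol matched 1 of the 54532 genes in the table, and all 40 were among the 16034 genes with enough counts to be tested. RNA came from heart tissue of 14 wild-type male C57BL/6J mice, 1 library per mouse, and which portion of each heart was taken is not given in the sources used here. The 7 irradiated mice had received 30 Gy of 60Co γ-rays to the anterior chest under pentobarbital at 8 weeks of age, with the rest of the body behind lead, and the 7 controls had received 0 Gy. Hearts were collected after 1 day from 3 controls (Control_1d) and 3 irradiated mice (IRR_1d), and after 6 weeks from 4 controls (Control_6w) and 4 irradiated mice (IRR_6w). The field was the chest and not the heart alone, and the sources used here do not say whether the controls were anaesthetised. The list holds 8 genes of calcium release and storage, 5 of calcium reuptake and removal, 5 calcium channel subunits, a sodium channel subunit and a sodium pump subunit, 7 voltage-gated and 6 other potassium channel genes, 2 pacemaker channels, 2 gap junction proteins and 3 adrenergic receptors.

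With each heartbeat the L-type calcium channel of the cardiomyocyte lets in a small amount of calcium, which opens the ryanodine receptor of the sarcoplasmic reticulum and releases the store that drives contraction. Relaxation follows when the pump SERCA2, held back by phospholamban, returns calcium to the store, and the sodium-calcium exchanger removes the rest from the cell. Potassium currents end the action potential, connexins pass it from cell to cell, and adrenergic receptors tune all of these steps. Several of the genes differ by chamber in the mouse, with sarcolipin and the subunits of the acetylcholine-activated potassium channel known for their atrial expression and KChIP2 for its ventricular expression.

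The 3 libraries named below as the libraries with other tissue were Control_6w replicate 3, IRR_6w replicate 1 and IRR_1d replicate 3. Levels are given as CPM, counts scaled by library total and TMM factor, in the order of the replicate numbers. Control_6w replicate 3 had a summed level of 7515 CPM over 20 cardiomyocyte markers and IRR_6w replicate 1 had 11730, against 23530 to 70220 in the other 12 libraries. Control_6w replicate 3 also held 4983 CPM of thymus markers (8 of 10 tested). IRR_6w replicate 1 held 3250 CPM of 9 atrial markers and 466 CPM of lung markers (4 of 8 tested), while the ventricular light chain genes Myl2 and Myl3 stood at 5.70 and 21.6 CPM. IRR_1d replicate 3 held 2459 CPM of the atrial markers and 1763 CPM of 5 smooth muscle markers. Fat markers were high in all 3, with Ucp1, the uncoupling protein of brown fat, at 484, 687 and 222 CPM in the order named and at 0 in the other 11 libraries, and 6 white fat markers summing to 1622, 2682 and 1040 CPM against 144 to 958. In the 4 mice of its group, Control_6w replicate 3 had the lowest level for 36 of the 40 genes and IRR_6w replicate 1 for 24, and IRR_1d replicate 3 was the lowest of 3 for 29. Control_1d replicate 1 and IRR_6w replicates 3 and 4 lacked any count for 30.7, 21.6 and 8.62% of the genes that stood at 2 to 5 CPM over the other libraries, and Control_6w replicate 1 for 1.98%, against at most 0.445% in the rest. Library totals ran from 13336746 to 16837265 counts. Other libraries held such markers too, with 603 CPM of the atrial markers in Control_1d replicate 2 and 33640 CPM of erythroid markers in Control_1d replicate 3, against 62950 in IRR_6w replicate 1. Of 6 testis markers, the 3 tested (Oaz3, Mael and Prm1) summed to 48.3, 54.8 and 37.2 CPM in Control_6w replicates 1 to 3. In the other 11 libraries they summed to at most 0.422. The other 3 testis markers, Prm2, Tnp1 and Ldhc, stood at 0 CPM in Control_6w replicates 1 to 3, so the list did not rise as a whole. Macrophage markers (6 genes) summed to 372 to 573 CPM in IRR_6w and 110 to 257 in Control_6w, without overlap, and their part in the values at 6 weeks was not tested. In bulk RNA, fewer cardiomyocytes and less RNA per cardiomyocyte cannot be told apart.

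No gene of the 40 passed the threshold in any of the 6 comparisons made. A gene was called when edgeR's adjusted p over all 16034 genes was under 0.05 and its level had at least doubled or halved. Of all genes tested, 0.0249% were called at 1 day, 0.256% at 6 weeks, 0% for Control_6w against Control_1d, 0.0374% for IRR_6w against IRR_1d, 0% for the change of the irradiation effect between the times, and 0.281% for irradiation averaged over both times. DESeq2 on all libraries called 0 of the 40 as well, and of the 29699 genes it tested it called 0.111, 1.16, 0.0943, 0.498, 0.141 and 0.687% in the same order. At an unadjusted p under 0.05 with no fold limit, 0 of the 40 genes passed at 1 day and 0 at 6 weeks, where 2.9 and 8.81% of all genes did. Between the control groups 2 passed, both lower at 6 weeks (1.75% of all genes passed in that direction). Between the irradiated groups 3 passed, all lower at 6 weeks (1.6% of all genes). For irradiation averaged over both times 1 passed, lower after irradiation (2.27% of all genes), and for the change of the effect 0 did (3.14% of all genes).

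At 1 day 16 of the 40 genes had a fitted level above control and 24 below, with a median log2 fold change of -0.12 (0.06 over all genes). At 6 weeks 18 were above and 22 below, with a median of -0.03 (-0.09 over all genes). Between the control groups 32 of 40 were lower at 6 weeks, with a median of -0.55 against 0.12 over all genes, and between the irradiated groups 35 were lower, with a median of -0.33 against -0.02. These medians rest in part on single libraries. The median at 1 day lay between -0.28 (without IRR_1d replicate 1) and -0.03 (without Control_1d replicate 3) with each library left out in turn, that at 6 weeks between -0.32 (without Control_6w replicate 3) and 0.16 (without Control_6w replicate 4), that of the controls between -0.65 (without Control_6w replicate 4) and -0.24 (without Control_6w replicate 3) and that of the irradiated groups between -0.53 (without IRR_1d replicate 3) and -0.21 (without IRR_6w replicate 1). The same medians scaled to the 20 cardiomyocyte markers were -0.02 for the controls and 0.53 for the irradiated groups, and 0.74 for irradiation at 6 weeks. Over all genes that scaling gave 1.21, 1.13 and 0.25, so the 40 genes stayed below all genes for both time differences and stood above them at 6 weeks. The scaling rests on the mean log count of the 20 markers, which include the ventricular genes Myl2 and Myl3. In IRR_6w replicate 1, rich in atrial markers, these stood at 5.70 and 21.6 CPM. Their part in the values with this scaling, here and below, was not tested. The sum of 15 clock genes separated the same times and also the groups at 1 day. It was 586 to 676 CPM in Control_1d, 789 to 829 in IRR_1d and 334 to 529 in the 8 libraries at 6 weeks. The single genes went different ways. Nr1d2 was lower at 6 weeks (40.05 to 78.4 CPM against 122 to 214) and Cry1 higher (17.3 to 44.9 against 9.67 to 14.9). At 1 day Tef was higher in IRR_1d (201 to 204 against 96.7 to 117), and Clock and Arntl overlapped. The part of the clock genes in the time differences and in the differences at 1 day was not tested. The macrophage marker sum also separated the irradiated groups, at 260 to 346 CPM in IRR_1d and 372 to 573 in IRR_6w. By single gene only Csf1r did so, at 71.8 to 95.8 CPM against 110 to 138, and the other macrophage markers overlapped. The part of these markers in the difference between the irradiated groups was not tested. Time since the start and the age of the mice cannot be told apart. The plot of fold changes for the 40 genes shows how wide the errors are beside the effects.

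**Figure D1:**
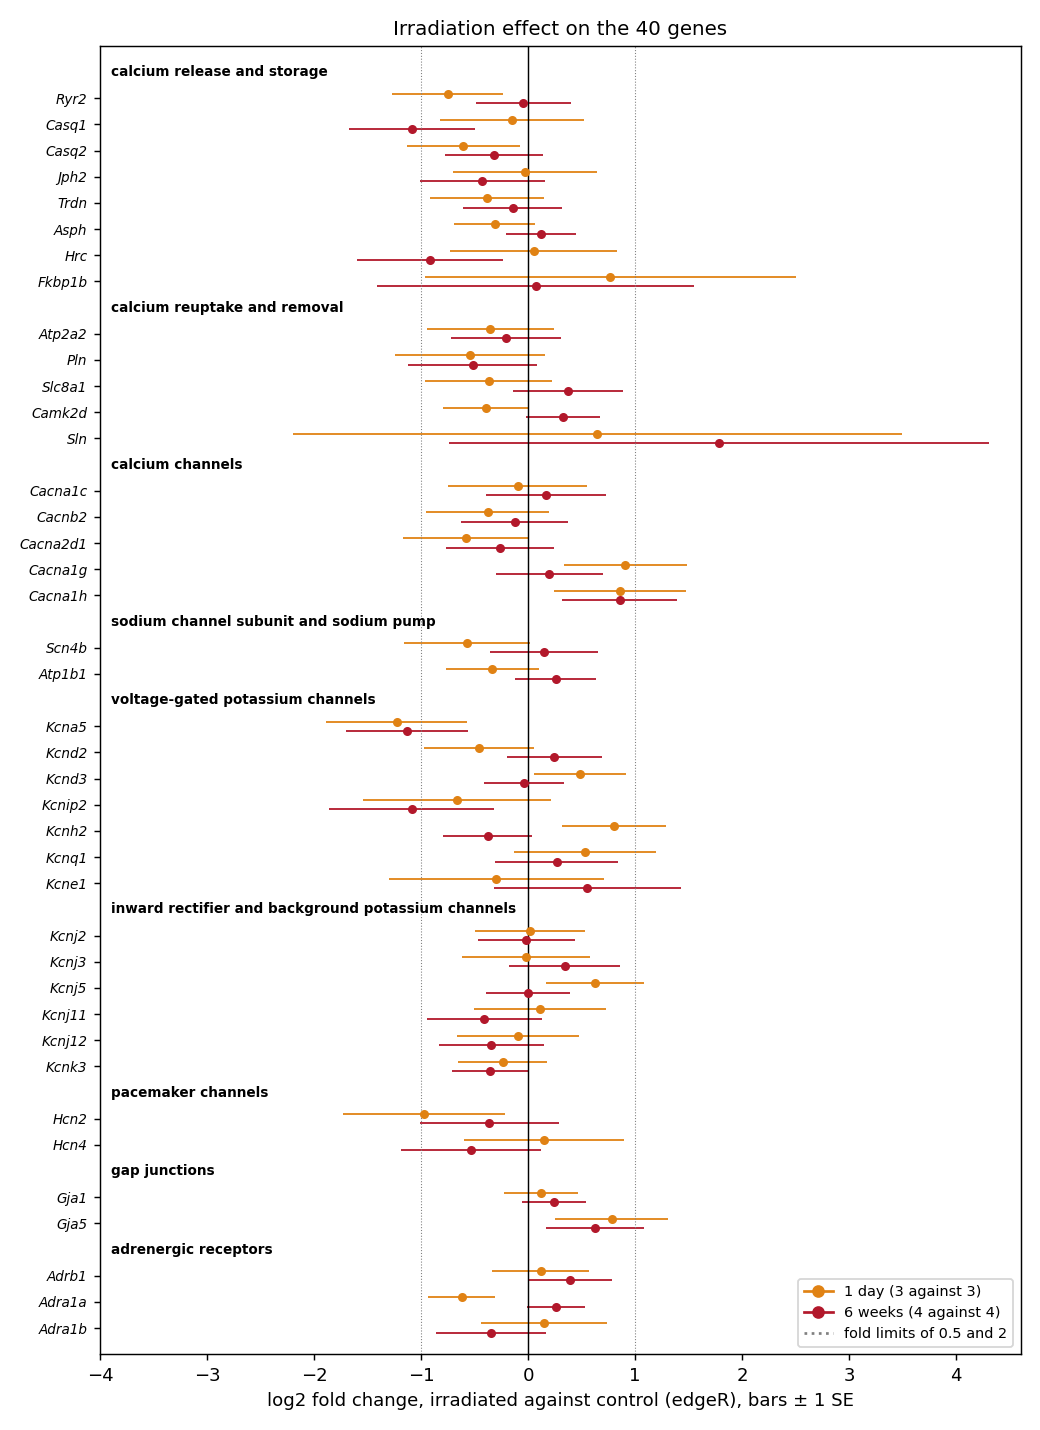
Log2 fold change of irradiated against control hearts for the 40 genes, grouped by role, at 1 day (orange, 3 against 3 mice) and 6 weeks (red, 4 against 4), with bars of 1 SE from edgeR and dotted lines at the fold limits of 0.5 and 2. Most points lie between the limits, Kcna5 lies below the lower limit at both times, and the bars of Sln and Fkbp1b are the widest.

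Groups that do not overlap were counted next. At 1 day all 3 irradiated hearts were above all 3 controls for Cacna1g, Kcnd3 and Kcnj5, 3 of 40 genes where 6.52% of all genes did so. All 3 were below for Ryr2, Casq2, Kcna5, Hcn2 and Adra1a, 5 of 40 where 4.14% of all genes did. The sum of 6 endothelial markers separated the same groups, at 900.2 to 1116 CPM in IRR_1d and 1274 to 1565 in Control_1d. By single gene only Kdr did so, at 169 to 334 CPM against 414 to 572. The others overlapped, with Pecam1 highest in IRR_1d replicate 3 (335 CPM). The part of these markers in the differences at 1 day was not tested. At 6 weeks 0 of the 40 genes were separated upwards and 0 downwards, against 4.08 and 1.64% of all genes. In Control_6w 5 genes lay below the whole of Control_1d (Ryr2, Atp2a2, Asph, Kcnj2 and Adra1a), where 2.53% of all genes did, and in IRR_6w 6 lay below the whole of IRR_1d (Casq1, Cacna1g, Kcnd3, Kcnj5, Kcnh2 and Adra1b), where 3.84% did.

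Calcium release and storage genes spanned a wide range of levels per length, on the scale of FPKM (CPM per kilobase of the deposited gene length). Casq2, the calcium-binding protein of the cardiac store, had a median of 263 FPKM over the 14 libraries, Hrc, another store protein, 129.6, the junctional membrane protein Jph2 64.7, triadin (Trdn) 43.8, Ryr2 36.5 and Asph, whose locus also encodes junctin, 11.4. The skeletal store protein Casq1 stood at 1.84 FPKM, and Fkbp1b, which stabilises the ryanodine receptor, at 0.560. In CPM, Jph2 ran from 51.8 to 517, Trdn from 90.3 to 762, Asph from 56.5 to 269 and Fkbp1b from 0 to 2.65.

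Ryr2 (chr13:11553102-12106945 in mm10, as deposited) encodes the cardiac calcium release channel. Its levels were 1925, 1613 and 1567 CPM in Control_1d, 1128, 1258 and 644 in IRR_1d, 799, 1124, 194 and 1288 in Control_6w and 537, 922, 867 and 975 in IRR_6w. All 3 irradiated hearts were below the 3 controls at 1 day, and at 6 weeks the groups overlapped. The log2 fold change was -0.75 (SE 0.518) at 1 day and -0.05 (SE 0.446) at 6 weeks, with an adjusted p of 1 and 0.985 (edgeR). Without the 2 libraries lowest in cardiomyocyte RNA, Control_6w replicate 3 and IRR_6w replicate 1, the values were -0.76 (SE 0.282) and -0.21 (SE 0.281). At 1 day it was -0.51 without IRR_1d replicate 3. At 6 weeks the sign turned under limma-voom, library totals, cardiomyocyte scaling and the replicate block, and without Control_6w replicate 2 (0.10), Control_6w replicate 4 (0.22) or IRR_6w replicate 1 (0.12), so no direction is read from it.

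Casq2 (chr3:102086415-102146514) was lower in the irradiated hearts at 1 day without overlap. It measured 820.3, 1123 and 951 CPM in Control_1d, 629, 803 and 471 in IRR_1d, 926, 823, 145 and 765 in Control_6w and 254, 586, 676 and 616 in IRR_6w. At 6 weeks the 3 irradiated hearts other than replicate 1 lay at 586 to 676, below the 3 controls other than replicate 3. Its log2 fold change was -0.60 (SE 0.531) at 1 day, -0.32 (SE 0.459) at 6 weeks and -0.46 (SE 0.351) averaged over both times, with an adjusted p of 0.833 for the average (edgeR). Casq1 (chr1:172209894-172219868) measured 3.57, 6.75 and 12.2 CPM in Control_1d, 3.29, 4.29 and 12.7 in IRR_1d, 4.49, 3.60, 1.99 and 7.28 in Control_6w and 1.90, 1.87, 1.59 and 2.80 in IRR_6w. IRR_1d replicate 3 was the highest library, and all 4 hearts of IRR_6w were below IRR_1d. IRR_6w against IRR_1d gave a log2 fold change of -1.72 (SE 0.630) with an adjusted p of 0.734 (edgeR), and -0.89 without IRR_1d replicate 3. Hrc measured 126, 494 and 567 CPM in Control_1d, 567, 399.5 and 266 in IRR_1d, 162, 638, 73.5 and 490.1 in Control_6w and 99.3, 426, 96.7 and 99.7 in IRR_6w. Its low values were those of the libraries where many genes had no count and of those low in cardiomyocyte RNA, and their part in its fold change of -0.92 (SE 0.681) at 6 weeks was not tested.

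Among the genes of calcium reuptake, Atp2a2, which encodes the pump SERCA2, had the highest level of the 40 genes per length, with a median of 1835 FPKM. Its inhibitor phospholamban (Pln) followed at 619.5. The exchanger gene Slc8a1 stood at 32.0, the calcium-dependent kinase gene Camk2d at 8.20 and sarcolipin (Sln), a second inhibitor of the pump, at 0.260. Camk2d ran from 72.7 to 277 CPM.

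Atp2a2 (chr5:122453513-122502225) measured 13100, 15310 and 12600 CPM in Control_1d, 11680, 13060 and 7383 in IRR_1d, 10640, 12090, 1912 and 12030 in Control_6w and 4148, 9075, 9058 and 9493 in IRR_6w. Control_6w replicate 3 and IRR_6w replicate 1 were far below the others of their groups, and the groups overlapped at both times. On the log2 scale the change was -0.35 (SE 0.591) at 1 day and -0.21 (SE 0.512) at 6 weeks, with an adjusted p of 1 and 0.938 (edgeR). The value at 1 day was -0.14 without IRR_1d replicate 3, and that at 6 weeks was 0.01 without IRR_6w replicate 1 and -0.54 without Control_6w replicate 3. Among controls all 4 hearts at 6 weeks were below the 3 at 1 day, with a log2 fold change of -0.58 (SE 0.549).

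Pln (chr10:53337667-53345987) measured 3034, 3109 and 1656 CPM in Control_1d, 1762, 2727 and 863 in IRR_1d, 2296, 1764, 404 and 1939 in Control_6w and 198, 1483, 1410 and 1376 in IRR_6w. IRR_6w replicate 1 was the lowest library, and the other 3 hearts of IRR_6w, at 1376 to 1483, were below the 3 controls other than replicate 3, at 1764 to 2296. The fitted change (log2) was -0.54 (SE 0.697) at 1 day and -0.52 (SE 0.603) at 6 weeks, with an adjusted p of 1 and 0.854 (edgeR). Leaving out single libraries moved it between -0.95 (without IRR_1d replicate 2) and -0.21 (without IRR_1d replicate 3) at 1 day and between -0.84 (without Control_6w replicate 3) and -0.17 (without IRR_6w replicate 1) at 6 weeks. Slc8a1 (chr17:81388691-81649607) measured 131, 104 and 146 CPM in Control_1d, 104, 111 and 80.9 in IRR_1d, 35.2, 87.6, 9.63 and 111 in Control_6w and 45.2, 89.2, 82.4 and 98.4 in IRR_6w. Its spread was widest in Control_6w, which spans the values of IRR_6w. edgeR put the log2 fold change at -0.37 (SE 0.593) at 1 day and 0.37 (SE 0.513) at 6 weeks, with an adjusted p of 1 and 0.881 (edgeR), and with cardiomyocyte scaling the value at 6 weeks was 1.49 (SE 0.616), the single one of the 40 genes past an unadjusted p of 0.05 there (adjusted p = 1 by edgeR), where 2.92% of all genes passed upwards. The value at 1 day was -0.22 without Control_1d replicate 3. At 6 weeks it was 0.01 without Control_6w replicate 3 and 0.84 without Control_6w replicate 4, and the sign turned without the 4 libraries where many genes had no count.

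**Figure D2:**
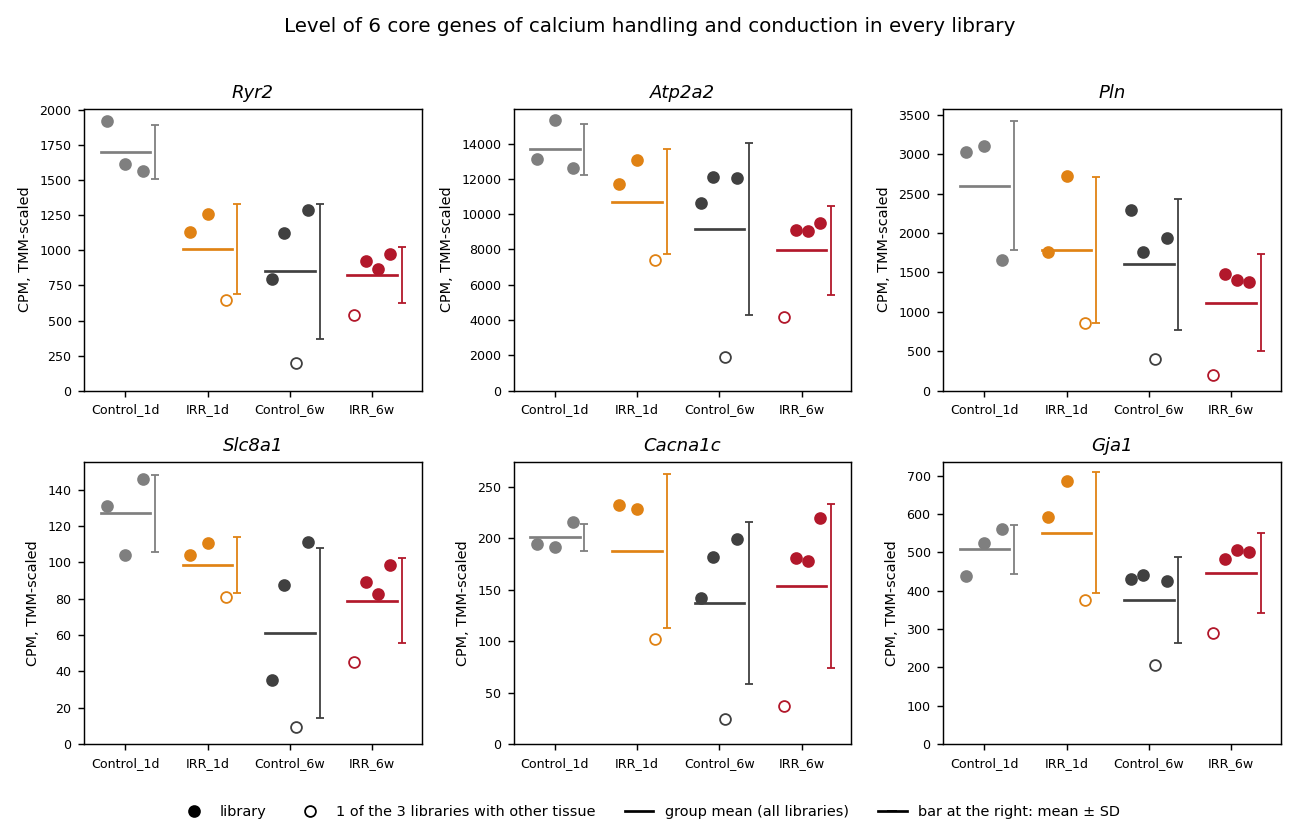
TMM-scaled CPM of Ryr2, Atp2a2, Pln, Slc8a1, Cacna1c and Gja1 in the 14 libraries by group (points), with the group mean (line) and mean ± SD (bar at the right), and open points for the 3 libraries with RNA of other tissue. The open points of the 6 week groups lie below the others for most of the genes, with Atp2a2 at 1912 in Control_6w and 4148 in IRR_6w.

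Sln was detected where atrial markers were. It measured 0, 106 and 0 CPM in Control_1d, 20.4, 0 and 145 in IRR_1d, 0.685, 0, 79.0 and 29.3 in Control_6w and 376, 0, 0 and 0 in IRR_6w. The 6 libraries with the highest atrial marker sums, at 262 to 3250 CPM, held 20.4 to 376 CPM of Sln, and the other 8, with sums of 45.1 to 98.2, held 0 to 0.685. These 6 libraries come from all 4 groups. The fitted log2 fold change at 6 weeks was 1.78 (SE 2.52), and all of the signal of IRR_6w was in replicate 1. Kcnj3, Gja5 and Cacna1h were also highest, or among the highest, in IRR_6w replicate 1 and IRR_1d replicate 3, and Pln and Kcnip2 were low in both. Except for Sln, these genes overlapped between the 6 libraries and the other 8. Pln ran from 198 to 3109 CPM in the 6 and from 1376 to 3034 in the 8, and Kcnip2 from 3.51 to 146 and from 71.05 to 190. The plot against the atrial marker sum shows these 6 genes.

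**Figure D3:**
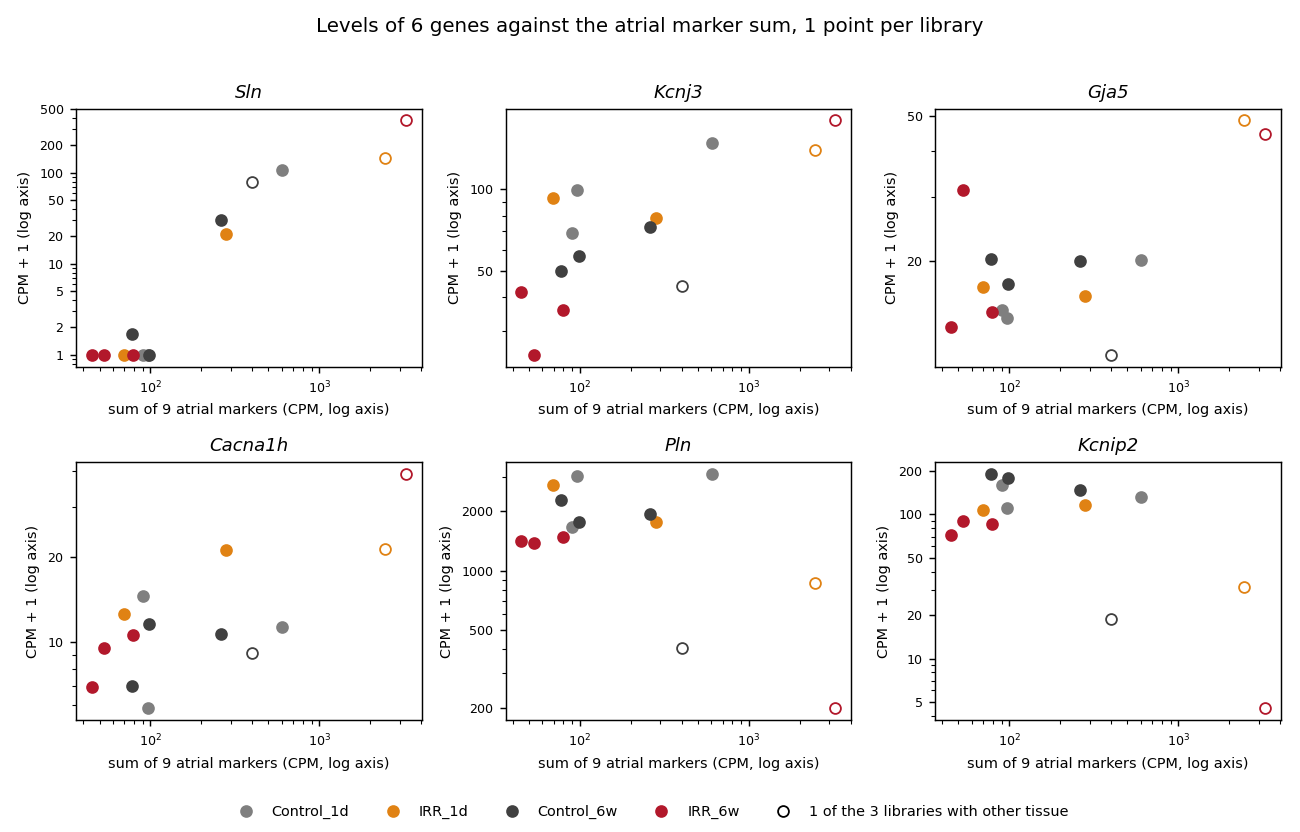
TMM-scaled CPM plus 1 of Sln, Kcnj3, Gja5, Cacna1h, Pln and Kcnip2 against the summed CPM of 9 atrial markers, both on log axes, with 1 point per library coloured by group and open points for the 3 libraries with other tissue. Sln lies at 20.4 CPM or more in the 6 libraries with the highest atrial sum and at 0.685 or less in the other 8.

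Of the calcium channel subunits, Cacna1c encodes the pore of the L-type channel that triggers release, and Cacnb2 and Cacna2d1 its auxiliary subunits. Their median levels per length were 8.81, 3.997 and 20.4 FPKM. Cacna1c (chr6:118587240-119196418) measured 194, 192 and 216 CPM in Control_1d, 232, 229 and 102 in IRR_1d, 142, 182, 24.0 and 199 in Control_6w and 37.5, 181, 178 and 219 in IRR_6w. The low values were those of the 3 libraries with other tissue, and the groups overlapped at both times. The log2 fold change was -0.10 (SE 0.649) at 1 day and 0.17 (SE 0.562) at 6 weeks, with an adjusted p of 1 and 0.956 (edgeR), and both signs turned when single libraries were left out. Cacnb2 ran from 7.80 to 77.5 CPM, with log2 fold changes of -0.38 and -0.13, and Cacna2d1 from 48.0 to 487, with -0.58 and -0.26. The T-type channel genes Cacna1g and Cacna1h, whose channels open at low voltage, ran from 3.48 to 26.6 and from 4.83 to 38.2 CPM. Cacna1g was at 26.6, 17.0 and 16.9 in IRR_1d against 3.89, 12.6 and 15.8 in Control_1d, with a log2 fold change of 0.91 (SE 0.578) and an adjusted p of 1 (edgeR). The lowest control there was replicate 1, the library with the most genes lacking a count. For Cacna1h the change averaged over both times was 0.86 (SE 0.409), and 0.38 without IRR_6w replicate 1, its highest library.

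Scn4b, an auxiliary subunit of sodium channels, ran from 10.5 to 73.4 CPM, and Atp1b1, the beta subunit of the sodium pump, from 69.8 to 331. Both had a fitted level below control at 1 day (-0.57 and -0.33) and above it at 6 weeks (0.15 and 0.26), with the groups overlapping each time.

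The voltage-gated potassium channel genes gave the lowest p of the 40 genes for irradiation averaged over both times. This was Kcna5 (chr6:126532551-126535412), which encodes the channel Kv1.5 of an early repolarising current. It measured 27.6, 18.5 and 36.9 CPM in Control_1d, 16.8, 12.6 and 6.01 in IRR_1d, 47.4, 51.4, 8.72 and 48.6 in Control_6w and 8.51, 36.1, 7.63 and 19.0 in IRR_6w. All 3 irradiated hearts were below the controls at 1 day. At 6 weeks 3 controls stood at 47.4 to 51.4 and the fourth, replicate 3, at 8.72, within the range of the irradiated hearts. Its log2 fold change was -1.23 (SE 0.662) at 1 day, -1.13 (SE 0.569) at 6 weeks and -1.18 (SE 0.437) averaged, with an adjusted p of 1, 0.608 and 0.474 (edgeR). Leaving out each library in turn moved the value at 6 weeks between -1.73 (without IRR_6w replicate 2) and -0.88 (without IRR_6w replicate 3). The averaged value moved between -1.48 and -1.02, and it was -1.23 (SE 0.345) without the 2 libraries lowest in cardiomyocyte RNA, with an adjusted p of 0.176 (edgeR). Without the 4 libraries where many genes had no count it was -0.96 (SE 0.579).

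Kcnip2, which encodes the subunit KChIP2 of the fast transient outward current, was chosen for full values after they were seen, as were Kcnj3, Casq2, Hcn2, Sln and Hrc. Kcnip2 (chr19:45791839-45816061) measured 109, 131 and 158 CPM in Control_1d, 114, 107 and 30.3 in IRR_1d, 190.1, 177, 17.9 and 146 in Control_6w and 3.51, 85.4, 71.0 and 89.2 in IRR_6w. IRR_6w replicate 1 was almost without it, with 61 counts, and Control_6w replicate 3 and IRR_1d replicate 3 were the next lowest. The other 3 hearts of IRR_6w lay at 71.0 to 89.2 and the other 3 of Control_6w at 146 to 190. The log2 fold change with all libraries was -0.66 (SE 0.879) at 1 day and -1.09 (SE 0.767) at 6 weeks, with an adjusted p of 0.747 at 6 weeks (edgeR). Without the 3 libraries with other tissue the value at 6 weeks was -1.06 (SE 0.209) with an adjusted p of 0.0326 (edgeR), which made it the single gene of the 40 that was called there, among 1.13% of all genes. Without only the 2 libraries lowest in cardiomyocyte RNA it was -1.06 (SE 0.378) with an adjusted p of 0.308 (edgeR). With all libraries scaled to the cardiomyocyte markers it was -0.50 (SE 0.680), and without the 4 libraries where many genes had no count, which include IRR_6w replicates 3 and 4, it was -1.31 (SE 1.215), and neither passed at an unadjusted p under 0.05. Replicates 3 and 4 of IRR_6w held 23530 and 25740 CPM of the cardiomyocyte markers, against 34460 to 70220 in the 3 controls that remained. The single markers differed. Tnnc1 (168 and 118 CPM against 305 to 1408) and Fabp3 (249 and 262 against 527 to 2589) lay below these controls. Ttn (2018 and 2020 against 1381 to 2174) and Csrp3 (633 and 637 against 609 to 994) lay within their range. The part of these markers, and of the higher macrophage markers of IRR_6w, in the result was not tested.

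Kcnd2 encodes a pore of the same current and had the lowest p of the 40 genes between the control groups. It measured 77.6, 51.2 and 31.1 CPM in Control_1d, 48.1, 40.2 and 28.4 in IRR_1d, 31.5, 18.4, 7.12 and 20.9 in Control_6w and 10.01, 19.8, 36 and 26.5 in IRR_6w (chr6:21215503-21729805). The lowest control at 1 day, at 31.1, lay just under the highest at 6 weeks, at 31.5. On the log2 scale the change was -1.46 (SE 0.479) with an adjusted p of 0.902 (edgeR), and -1.18 (SE 0.362) without the 2 libraries lowest in cardiomyocyte RNA. Between the irradiated groups it was -0.75 (SE 0.477). Kcnd3, a related pore gene, ran from 4.44 to 18.8 CPM and was at 17.3 to 18.8 in IRR_1d against 8.59 to 16.3 in Control_1d.

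Kcnh2 encodes the channel hERG of the rapid delayed rectifier and had the lowest p of the 40 genes between the irradiated groups. It measured 15.6, 51.5 and 75.7 CPM in Control_1d, 114, 58.8 and 75.5 in IRR_1d, 37.1, 57.1, 34.9 and 40.4 in Control_6w and 44.3, 43.5, 18.9 and 23.6 in IRR_6w (chr5:24319589-24351604). The 3 hearts of IRR_1d were all above the 4 of IRR_6w, and the lowest control at 1 day was the library with the most genes lacking a count. The log2 fold change between the irradiated groups was -1.35 (SE 0.448) with an adjusted p of 0.614 (edgeR), and -0.93 (SE 0.357) without those 4 libraries where many genes had no count. Kcnq1 and Kcne1, the pore and the auxiliary subunit of the slow delayed rectifier, ran from 4.39 to 39.0 and from 0.427 to 7.65 CPM, and their log2 fold changes at 6 weeks were 0.27 (SE 0.573) and 0.55 (SE 0.873).

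**Figure D4:**
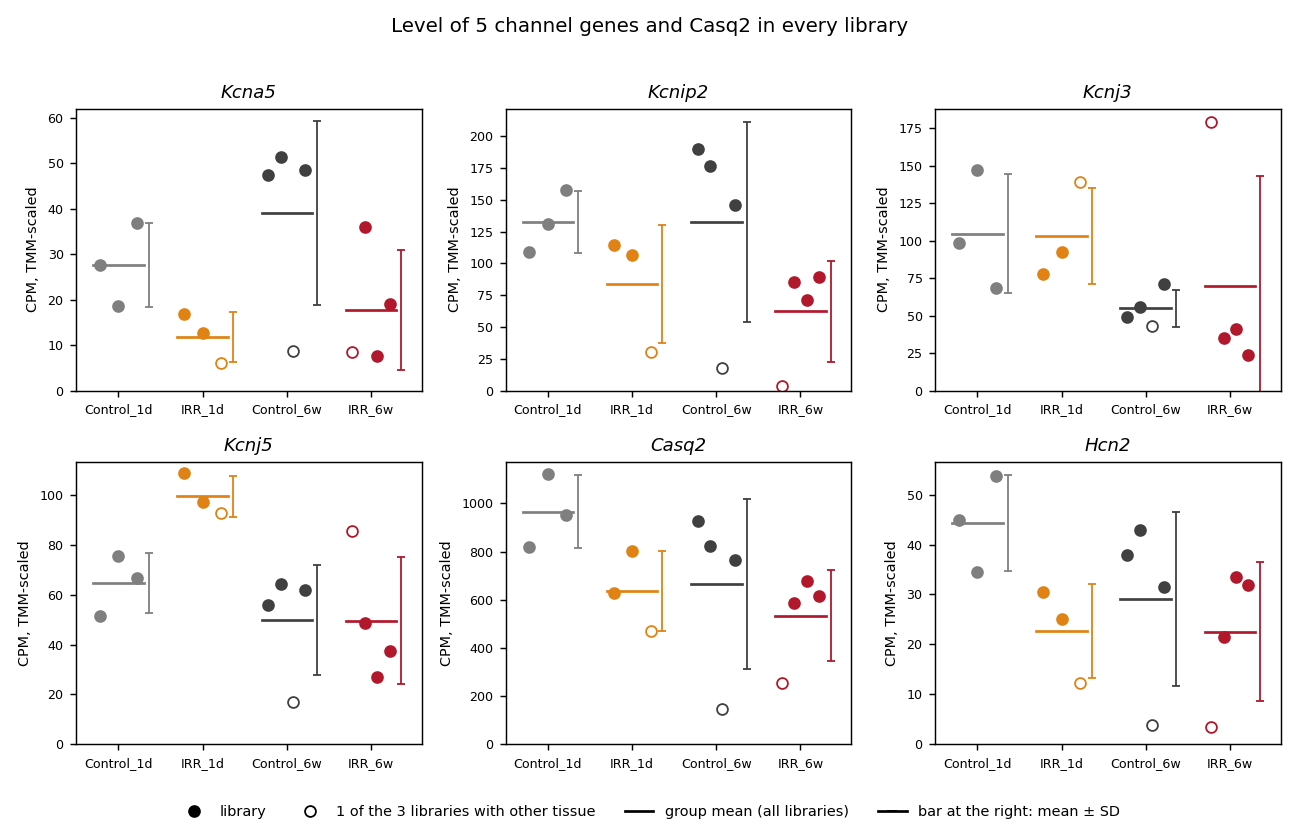
TMM-scaled CPM of Kcna5, Kcnip2, Kcnj3, Kcnj5, Casq2 and Hcn2 in the 14 libraries by group (points), with the group mean (line) and mean ± SD (bar at the right, ending at the axis where it would pass 0), and open points for the 3 libraries with RNA of other tissue. Kcna5, Casq2 and Hcn2 were lower in all 3 hearts of IRR_1d than in Control_1d. Within IRR_6w the open point is the highest for Kcnj3 and Kcnj5 and the lowest for Kcnip2, Casq2 and Hcn2.

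Among the inward rectifiers, Kcnj3 and Kcnj5 encode the 2 subunits of the acetylcholine-activated channel that slows the heart under vagal tone. Kcnj3 (chr2:55435970-55598145) measured 98.1, 147 and 68.3 CPM in Control_1d, 77.5, 92.1 and 139 in IRR_1d, 49.0, 55.9, 43.1 and 71.3 in Control_6w and 179, 34.9, 40.8 and 23.5 in IRR_6w. Kcnj5 (chr9:32314707-32344350) measured 51.6, 75.6 and 66.9 CPM in Control_1d, 109, 97.2 and 92.8 in IRR_1d, 55.9, 64.5, 17.0 and 62.0 in Control_6w and 85.8, 48.6, 26.8 and 37.5 in IRR_6w. Both were highest among the 4 hearts of IRR_6w in replicate 1, the library rich in atrial markers, and the other 3 hearts lay below every heart of IRR_1d. IRR_6w against IRR_1d gave a log2 fold change of -1.004 (SE 0.422) for Kcnj5, with an adjusted p of 0.821 (edgeR), and -0.57 (SE 0.554) for Kcnj3, with 0.999.

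Without the 2 libraries lowest in cardiomyocyte RNA these became -1.40 (SE 0.239) for Kcnj5 and -1.63 (SE 0.328) for Kcnj3, with an adjusted p of 0.0182 and 0.0362 (edgeR). They were then the 2 genes of the 40 that were called, among 0.865% of all genes. The macrophage marker sum separated the irradiated groups as well, at 260 to 346 CPM in IRR_1d and 372 to 573 in IRR_6w over all libraries. Of its single markers only Csf1r did so. The part of these markers in these calls was not tested. With IRR_1d replicate 3, which is also rich in atrial markers, left out as well, Kcnj5 was called at -1.45 (adjusted p = 0.0322 by edgeR) among 0.659% of all genes, and Kcnj3 stood at -1.36 with an adjusted p of 0.104. Scaled to the cardiomyocyte markers with all libraries, Kcnj5 was at 0.49 and Kcnj3 at 1.12. That scaling moved the median over all genes to 1.13 in this comparison, so Kcnj5 was below it and Kcnj3 at it. Without the 4 libraries where many genes had no count, Kcnj5 was at -0.59 and Kcnj3 at 0.02. Of IRR_6w that fit kept only replicates 1 and 2, and replicate 1 is the library rich in atrial markers. Its part in these values was not tested. Kcnj2 and Kcnj12, which set the resting potential, ran from 9.97 to 85.9 and from 2.45 to 22.8 CPM. Kcnj11, the pore of the ATP-sensitive channel, ran from 17.4 to 133, and the background channel gene Kcnk3 from 95.7 to 299. Their fold changes at 6 weeks were -0.02, -0.35, -0.41 and -0.35 on the log2 scale.

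Hcn2 and Hcn4 encode pacemaker channels, with Hcn4 known as the main form of the sinus node. Hcn2 measured 44.8, 34.5 and 53.8 CPM in Control_1d, 30.5, 25.1 and 12.2 in IRR_1d, 37.9, 42.9, 3.87 and 31.5 in Control_6w and 3.39, 21.4, 33.6 and 31.8 in IRR_6w. All 3 hearts of IRR_1d were below the controls, and the log2 fold change was -0.97 (SE 0.754) at 1 day, with an adjusted p of 1 (edgeR), and -0.36 (SE 0.648) at 6 weeks. Hcn4 ran from 1.31 to 18.9 CPM, with a log2 fold change of -0.54 (SE 0.651) at 6 weeks, and of -1.37 (SE 0.586) without the 3 libraries with other tissue, with an adjusted p of 0.429 (edgeR).

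Gja1 encodes connexin 43, the main gap junction protein of the ventricle, and Gja5 connexin 40, known from the atria and the conduction system. Gja1 (chr10:56377330-56402513) measured 438, 523 and 561 CPM in Control_1d, 592, 685 and 376 in IRR_1d, 430.3, 442, 207 and 424 in Control_6w and 290.2, 484, 506 and 502 in IRR_6w. Apart from Control_6w replicate 3 and IRR_6w replicate 1 the 6 week controls lay at 424 to 442 and the irradiated hearts at 484 to 506. The fitted change (log2) was 0.12 (SE 0.345) at 1 day and 0.24 (SE 0.299) at 6 weeks, with an adjusted p of 1 and 0.861 (edgeR). At 1 day the sign turned without IRR_1d replicate 2, and at 6 weeks the value lay between 0.04 (without Control_6w replicate 3) and 0.40 (without IRR_6w replicate 1). Gja5 ran from 10.1 to 47.6 CPM and was highest in IRR_1d replicate 3 and IRR_6w replicate 1, and its averaged change of 0.70 (SE 0.349) had an adjusted p of 0.703 (edgeR) and was 0.33 without IRR_1d replicate 3.

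The adrenergic receptor genes ran from 8.15 to 40.3 CPM for Adrb1, the beta-1 receptor, from 8.83 to 27.8 for Adra1a and from 4.50 to 57.9 for Adra1b, the alpha-1 receptors. Adra1a (chr14:66635251-66771168) measured 27.8, 24.7 and 22.9 CPM in Control_1d, 17.1, 18.7 and 13.3 in IRR_1d, 8.83, 18.9, 15.3 and 17.7 in Control_6w and 21.5, 16.6, 14.4 and 20.3 in IRR_6w. Control_1d was above every other heart. edgeR put the log2 fold change at -0.73 (SE 0.289) for Control_6w against Control_1d and -0.62 (SE 0.312) at 1 day after irradiation, with an adjusted p of 0.902 and 1 (edgeR). The change of its irradiation effect between the times was 0.88 (SE 0.412) with an adjusted p of 0.990. Both of these comparisons share the libraries of Control_1d. The time difference of the controls was 0.27 when scaled to the cardiomyocyte markers, where the median over all genes was 1.21.

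More of the 40 genes passed at an unadjusted p under 0.05 once Control_6w replicate 3 and IRR_6w replicate 1 were left out, an alternative added after the data were seen. In the lower direction 4 then passed at 1 day (Ryr2, Casq2, Kcna5 and Hcn2; 2.29% of all genes), with Kcnj5 passing in the higher direction (2.79% of all genes). Both libraries left out were from 6 weeks, and with IRR_1d replicate 3 left out as well only 1 of the 4, Hcn2, passed at 1 day (1.24% of all genes). Kcnj5 still passed in the higher direction there (0.979% of all genes). At 6 weeks 5 passed (Kcna5, Kcnip2, Kcnj3, Kcnj5 and Hcn4; 3.41% of all genes). For the average 5 passed (Ryr2, Casq2, Kcna5, Kcnip2 and Hcn2; 3.35% of all genes), with log2 fold changes of -0.49 (SE 0.199), -0.51 (SE 0.171), -1.23 (SE 0.345), -0.86 (SE 0.266) and -0.67 (SE 0.23) and an adjusted p of 0.176 or more (edgeR). Scaled to the cardiomyocyte markers with all libraries, Ryr2 and Casq2 stood at 0.13 and 0.04, where the median over all genes was 0.29, and the other 3 stayed below control. Between the irradiated groups 8 passed (Casq1, Cacna1h, Sln, Kcnj3, Kcnj5, Kcnh2, Hcn4 and Adra1b; 4.46% of all genes), and of these Casq1, Sln, Kcnj3 and Cacna1h had their highest level of IRR_1d in replicate 3, the library rich in atrial markers. With that library left out too, 6 passed between the irradiated groups (3.23% of all genes; Casq1, Cacna1h and Sln did not, and Kcnj2 did), and for the average 6 passed (2.01% of all genes; Ryr2 did not, and Casq1 and Kcnj3 did).

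The promoters shown are those of Kcna5, which had the lowest p for irradiation averaged over both times, of Kcnip2, Kcnj3 and Kcnj5, which were called once libraries were left out, and of Pln, the only window of the 34 with a TATA box motif. RefSeq sequence on GRCm38.p6 was at hand for 29 of the 40 genes, in 34 windows of 300 bases that run from 250 before the start of the transcript to 50 after it. Windows were searched on both strands for the TATA box motif TATAAA, the GC box motif GGGCGG, the GATA motif AGATAA, the E-box motif CACGTG and the cAMP response motif TGACGTCA, and matches are in capitals. No motif overlaps another in the windows shown. The windows are chr6:126535506-126535805 (minus strand) for Kcna5, chr19:45816014-45816313 (minus) for Kcnip2, chr2:55435720-55436019 (plus) for Kcnj3, chr9:32344295-32344594 (minus) for Kcnj5 and chr10:53337436-53337735 (plus) for Pln.
Kcna5: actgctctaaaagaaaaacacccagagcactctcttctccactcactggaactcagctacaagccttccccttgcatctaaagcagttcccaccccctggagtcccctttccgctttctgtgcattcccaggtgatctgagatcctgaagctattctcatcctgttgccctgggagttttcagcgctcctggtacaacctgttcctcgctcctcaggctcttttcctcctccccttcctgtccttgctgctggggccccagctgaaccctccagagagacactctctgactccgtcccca
Kcnip2: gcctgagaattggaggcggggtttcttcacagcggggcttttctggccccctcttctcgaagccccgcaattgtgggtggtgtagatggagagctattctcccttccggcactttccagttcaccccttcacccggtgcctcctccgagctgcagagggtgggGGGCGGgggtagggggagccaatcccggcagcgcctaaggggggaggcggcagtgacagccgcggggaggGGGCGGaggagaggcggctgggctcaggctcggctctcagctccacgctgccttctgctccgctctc
Kcnj3: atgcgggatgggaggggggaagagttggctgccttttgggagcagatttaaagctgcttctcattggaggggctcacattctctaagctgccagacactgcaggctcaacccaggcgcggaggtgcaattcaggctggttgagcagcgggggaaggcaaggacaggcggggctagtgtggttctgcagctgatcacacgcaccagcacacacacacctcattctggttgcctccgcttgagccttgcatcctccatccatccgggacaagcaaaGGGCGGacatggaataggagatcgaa
Kcnj5: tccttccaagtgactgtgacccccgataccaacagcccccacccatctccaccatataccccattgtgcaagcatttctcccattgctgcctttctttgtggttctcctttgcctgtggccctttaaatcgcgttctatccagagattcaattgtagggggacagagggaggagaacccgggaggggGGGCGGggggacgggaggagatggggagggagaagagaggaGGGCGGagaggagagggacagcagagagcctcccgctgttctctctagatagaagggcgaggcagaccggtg
Pln: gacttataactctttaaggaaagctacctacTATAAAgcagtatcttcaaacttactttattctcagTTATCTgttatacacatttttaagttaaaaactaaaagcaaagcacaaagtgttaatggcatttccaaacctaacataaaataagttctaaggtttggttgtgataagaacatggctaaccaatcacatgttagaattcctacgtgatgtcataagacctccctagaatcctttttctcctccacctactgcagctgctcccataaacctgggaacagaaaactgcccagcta

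Kcnip2 and Kcnj5 each held GGGCGG at 2 places and Kcnj3 at 1, Pln held TATAAA and, on the other strand, AGATAA, and the Kcna5 window held none of the 5. Over the 34 windows, 22 held GGGCGG, against 35.7% of 32851 promoter windows of the genome. TATAAA was in 1 of 34 (13.6% of all), AGATAA in 3 (11.2% of all; Gja1, Pln and Slc8a1), CACGTG in 1 (7.15% of all; Kcnj2) and TGACGTCA in 0 (1.79% of all). These are matches of letters and not binding sites.

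Ratios of partner transcripts within a library do not depend on the scaling between libraries. The 6 ratios were compared between irradiated and control hearts with two-sided exact permutation tests, exchanging labels within each time point (1400 assignments, smallest p 0.00143), with p adjusted over the 6. For Pln to Atp2a2, the inhibitor to its pump, Control_1d held ratios of 0.131 to 0.232, IRR_1d of 0.117 to 0.209, Control_6w of 0.146 to 0.216 and IRR_6w of 0.0476 to 0.163. The lowest value was that of IRR_6w replicate 1, and the other 3 hearts of that group lay within the range of the controls or just under it. The log2 difference was -0.45 with an exact p of 0.11 (adjusted 0.22).

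For Slc8a1 to Atp2a2, the exchanger to the pump, Control_1d ran from 0.00681 to 0.0116, IRR_1d from 0.00847 to 0.0110, Control_6w from 0.00331 to 0.00927 and IRR_6w from 0.00910 to 0.0109. The log2 difference was 0.41 with an exact p of 0.0943 (adjusted 0.22), and at 6 weeks alone it was 0.79 with an exact p of 0.0571, where the smallest possible is 0.0286. Of the 4 hearts of IRR_6w, 3 lay above every control of that time. For Kcnip2 to Kcnd2, the subunit to its pore, Control_1d ran from 1.40 to 5.06, IRR_1d from 1.06 to 2.65, Control_6w from 2.5 to 9.58 and IRR_6w from 0.354 to 4.31. The log2 difference was -1.07 with an exact p of 0.0757 (adjusted 0.22), and -1.66 at 6 weeks alone with an exact p of 0.0857. The ratio of Casq2 to Ryr2 differed by -0.08 (exact p = 0.677, adjusted 0.966). The ratios of Sln to Atp2a2 and Fkbp1b to Ryr2, where some libraries held 0 counts of Sln or Fkbp1b, differed by 0.30 (exact p = 0.924) and 0.05 (exact p = 0.966). With 3 against 3 hearts at 1 day no exact p can fall under 0.10, and the lowest of the 6 there was 0.3.

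**Figure D5:**
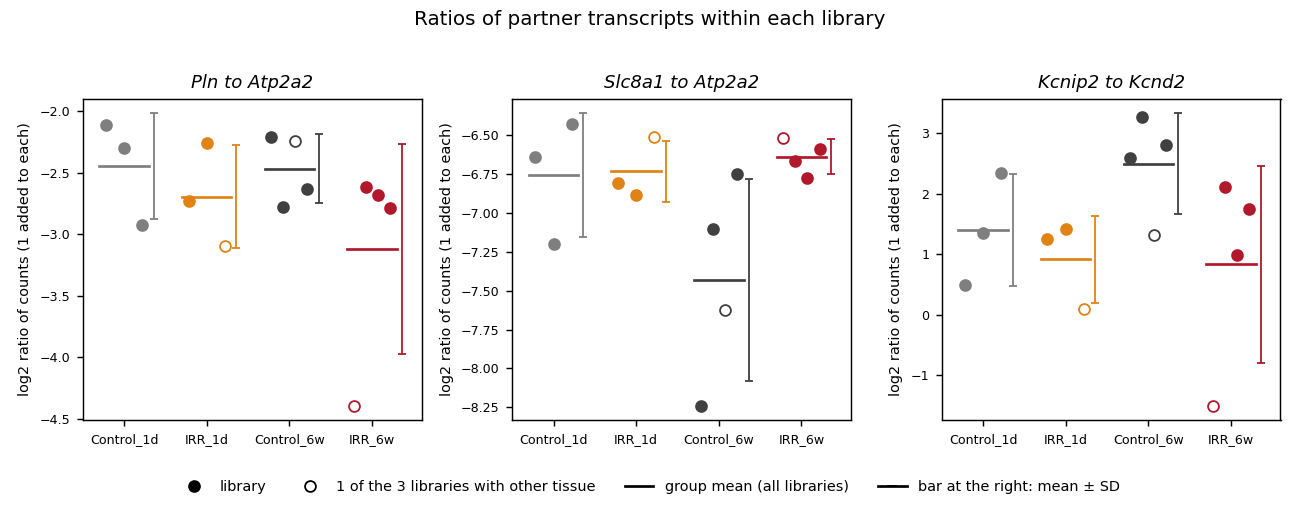
Log2 ratio of counts, with 1 added to each, of Pln to Atp2a2, Slc8a1 to Atp2a2 and Kcnip2 to Kcnd2 in the 14 libraries by group (points), with the group mean (line) and mean ± SD (bar at the right), and open points for the 3 libraries with other tissue. For Pln to Atp2a2 and Kcnip2 to Kcnd2 the open point of IRR_6w is the lowest of all libraries.

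Other genes of the same pathways were read from a list of 151 calcium handling, channel and adrenergic genes outside the 40, of which 144 were tested. Of these 144, 0 were called by edgeR with all libraries, TMM scaling and the filter on low counts. At an unadjusted p under 0.05, 2 of 144 were higher and 0 lower at 1 day (1.94 and 0.96% of all genes), 7 and 1 at 6 weeks (5.43 and 3.37%), 7 and 6 for Control_6w against Control_1d (3.54 and 1.75%), 6 and 2 for IRR_6w against IRR_1d (4.2 and 1.6%), 1 and 0 for the change of the effect (2.13 and 1.01%) and 6 and 0 for irradiation averaged over both times (5.25 and 2.27%). The gene with the lowest p at 6 weeks and for the average was Scn3b, an auxiliary subunit of sodium channels that is known as a target of p53. It measured 5.52, 1.11 and 1.08 CPM in Control_1d, 5.99, 7.04 and 10.4 in IRR_1d, 0.457, 1.99, 1.31 and 2.76 in Control_6w and 11.3, 13.3, 21.9 and 14.3 in IRR_6w. All 4 hearts of IRR_6w were above every control, and at 1 day Control_1d replicate 1, at 5.52, came close to the irradiated hearts. The log2 fold change was 3.21 (SE 0.649) at 6 weeks and 1.59 (SE 0.706) at 1 day, with an adjusted p of 0.0597 and 1, and the average was 2.40 (SE 0.482) with an adjusted p of 0.0614 (edgeR). DESeq2 called it at 6 weeks, with an adjusted p of 1.94e-05. It was called by edgeR at 6 weeks with library totals, with no low count filter, without Control_1d replicate 1 and without IRR_6w replicate 1, and for the average with no low count filter, without Control_1d replicate 1 and without the 4 libraries where many genes had no count.

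The next genes at 6 weeks were Kcne4, a potassium channel subunit, at 1.51 (SE 0.509), and Pde4b, a phosphodiesterase that breaks down cAMP, at 0.80 (SE 0.294), with an adjusted p of 0.326 and 0.388 (edgeR). Among the genes with the lowest p at 1 day was also Adrb3, the beta-3 receptor known from fat, which had 1, 0 and 0 counts in Control_1d and 5, 2 and 838 in IRR_1d. It had 1436 counts in Control_6w replicate 3 and 2313 in IRR_6w replicate 1, so its 3 high libraries were those high in fat markers, and elsewhere it had at most 13. Between the controls the genes of lowest p were Chrm2, the muscarinic receptor of the heart, at -0.97 (SE 0.351), the calcium sensor gene Stim2 at 0.76 (SE 0.3) and Kcnn4, whose 837 counts in Control_6w replicate 3 stood against at most 14 in the other controls. Between the irradiated groups they were Kcne3, with 1, 2 and 0 counts in IRR_1d and 18, 40, 67 and 101 in IRR_6w, Rcan1, an inhibitor of calcineurin, at 1.68 (SE 0.54) and Fkbp1a at 0.74 (SE 0.276). For the change of the effect they were Pde4b at 1.46 (SE 0.449), Grk5 at 0.72 (SE 0.337) and Gem at 1.40 (SE 0.66), and for the average, after Scn3b, Bin1 at 0.73 (SE 0.275). None of these genes other than Scn3b had an adjusted p under 0.326 (edgeR), and DESeq2 called Kcne3 between the irradiated groups. Rcan1 was called between the irradiated groups without the 2 libraries lowest in cardiomyocyte RNA, at 2.001 (SE 0.275) with an adjusted p of 0.00576 (edgeR), and it stood at 1.12 (SE 0.268) between the control groups in the same fit, with an adjusted p of 0.482.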

How the data were processed

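RNA from heart tissue of 14 mice was sequenced by Novogene as 150-bp paired reads. Per the labels and the study's methods, reads were checked with FastQC 0.11.8, trimmed with Trim Galore 0.6.1, aligned to mm10 with STAR 2.5.0a and counted per gene with HTSeq, and the authors deposited raw counts with gene positions and lengths. The strand setting of the counting is not given in the sources used here. No per-sample column of the table was left unused (0 columns).

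Each library is 1 mouse, and p-values measure the spread between mice. Genes were kept by filterByExpr (16034 of 54532), scaled by TMM and tested with edgeR 4.0.16 in R 4.3.3 by the quasi-likelihood F test, in 1 model of the 4 groups. The p-values were adjusted over all genes tested by the Benjamini-Hochberg method. DESeq2 1.42.0 and limma 3.58.1 were alternatives. Scripts were tested on simulated data first. For ratios of 2 genes 1 count was added to each. Library totals were 13336746 to 16837265 counts.

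The 40 genes, the 151 related genes and the marker lists were chosen with earlier results of these data known. Genes were named by rule: Ryr2, Atp2a2, Pln, Slc8a1, Cacna1c and Gja1 always, every gene of the 40 at an unadjusted p under 0.05, up to 10 per comparison, and the 3 related genes of lowest p per comparison, of which 1 gene is not reported here. Promoter sequence came from RefSeq (GRCm38.p6).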

Additional observations from a re-analysis of the deposited data

Results flagged for a closer look

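Within the groups of 4 hearts at 6 weeks, 14 of the 80 sets of 4 CPM values held a heart far from the other 3, by Dixon's criterion at the 95% level. Chance gives about 1 in 20 for independent sets, but these 80 share 8 libraries. Of all 16034 genes tested, 15.7% held such a heart in Control_6w and 9.26% in IRR_6w, beside 5 and 9 of the 40 genes. The groups of 3 hearts at 1 day were not examined in this way.

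Control_6w replicate 3 was low in 5 genes. Atp2a2 stood at 1912 CPM against 10640 to 12090 in the other 3 controls and Kcna5 at 8.716 against 47.4 to 51.4. Kcnj12 stood at 2.449 CPM, Kcnk3 at 95.7 and Gja1 at 206.8. This library also held 7515 CPM of the cardiomyocyte markers and 4983 CPM of the thymus markers.

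IRR_6w replicate 1 was low in Atp2a2 (4148 CPM), Pln (197.5 CPM) and Gja1 (290.2 CPM), and high in Cacna1h (38.19 CPM), Sln (376.2 CPM), Fkbp1b (2.646 CPM) and Kcnj3 (178.8 CPM). It also held 11730 CPM of the cardiomyocyte markers and 3250 CPM of the atrial markers. The part of these markers in the 12 values of both libraries was not tested.

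The other 2 values were Hrc at 425.8 CPM in IRR_6w replicate 2, high against its group, and Kcnk3 at 149.5 CPM in IRR_6w replicate 4, low against its group.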

How the results depend on the processing

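The count of 0 genes past the threshold did not change in any of the 6 comparisons under DESeq2, limma-voom, other scalings, other filters on low counts, no fold limit, the replicate block or with any single library left out. With an unadjusted p and no fold limit it was 2 for Control_6w against Control_1d, 3 for IRR_6w against IRR_1d and 1 for the average. Without the 3 libraries with other tissue it was 1 at 6 weeks and 1 between the irradiated groups, and without the 2 lowest in cardiomyocyte RNA it was 2 between the irradiated groups. The cause was not tested for any change given here. Replicate numbers did not pair the mice (correlations of -0.405 to 0.508, best with its own number for 2 of 7), and the replicate block gave Ryr2 0.146 at 6 weeks.

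Signs turned on the log2 scale as follows. At 6 weeks Ryr2 was 0.203 under limma-voom, 0.260 with library totals and 0.936 with cardiomyocyte scaling, and Atp2a2 was 0.00966, 0.0954 and 0.687. Without the 4 libraries where many genes had no count, Slc8a1 was -0.0276 and Cacna1c -0.273 at 6 weeks. Without the 3 libraries with other tissue Cacna1c was 0.201 at 1 day. With cardiomyocyte scaling Adra1a was 0.268 between controls and Kcnj5 0.485 between irradiated groups. The ratio of Sln to Atp2a2 was -1.602 without those 3 libraries and -0.349 without the 2. Fkbp1b to Ryr2 was -0.684 and -0.368, and -0.0324 with 0.5 counts added.

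With each library left out in turn, Cacna1c ran from -0.275 to 0.204 and Gja1 from -0.0392 to 0.336 at 1 day, and at 6 weeks Ryr2 from -0.375 to 0.223, Atp2a2 from -0.544 to 0.00790 and Cacna1c from -0.180 to 0.495. The ratio Pln to Atp2a2 ran from -0.571 (exact p = 0.0414, without Control_1d replicate 3) to -0.239, Sln to Atp2a2 from -1.429 to 2.023, Slc8a1 to Atp2a2 from 0.273 to 0.520 (exact p = 0.0414, without Control_6w replicate 4), Fkbp1b to Ryr2 from -0.663 to 0.452, Casq2 to Ryr2 from -0.180 to 0.0156 and Kcnip2 to Kcnd2 from -1.295 (exact p = 0.0257, without Control_1d replicate 1) to -0.680. The same exact test also gave under 0.05 for Slc8a1 to Atp2a2 without Control_1d replicate 3 (p = 0.0343) and for Kcnip2 to Kcnd2 without IRR_6w replicate 2 (p = 0.0471).

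Library totals moved the median over all genes by 0.23 at 6 weeks and 0.31 between irradiated groups, and cardiomyocyte scaling by 1.12 between irradiated groups and 1.11 between controls, on the log2 scale. Fkbp1b, at 0 to 2.65 CPM, was near the limit of detection.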
